A study of Mus musculus with 1505 samples.

Results

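The intronic share of RNA was compared between intratelencephalic (IT) and Sst neurons of mouse primary motor cortex that had been recorded at 34 °C. The intronic share is the percent of a cell's or a gene's reads that fall in introns out of all its intronic and exonic reads. IT cells are those whose assigned transcriptomic type (t-type) has IT in its name, and Sst cells are those whose t-type name begins with Sst. With a minimum of 200000 exonic counts per cell, all 43 IT cells and 89 of the 110 Sst cells were kept, out of the 1505 cells of the series.

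The cells came from acute slices of adult mice and were measured with Patch-seq, in which a neuron is recorded through a pipette and its contents are then aspirated and sequenced. The mice carried Sst-Cre or, in a single case, Pvalb-Cre with the Ai9 reporter, so the driver line marked interneurons while the excitatory neurons were patched without a driver of their own. Slices of both families were held in kynurenic acid and picrotoxin, blockers of fast excitatory and inhibitory transmission. The labels name no animal, so each family was treated as 1 sample. No test was therefore made, the SD values are over cells, and "called" stands only for a difference of at least 20 percentage points.

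A primary transcript contains introns, most of which are removed in the nucleus before the mature RNA reaches the cytoplasm. Intronic reads therefore come largely from nuclear RNA, and their share depends on how much of the nucleus is collected as well as on the gene. According to the study's general protocol, the nucleus was in most cases drawn out of the cell body. No label gives this for a cell, and its part in the results below was not tested. IT neurons are glutamatergic cells that project within the telencephalon, and Sst neurons are GABAergic interneurons that release somatostatin.

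The marker genes followed the labels in most cells. Slc17a7, the vesicular glutamate transporter of cortical excitatory neurons, had an exonic read in 43 of 43 IT cells and in 30 of 89 Sst cells, with medians of 314 and 0 CPM (exonic reads of the gene per 1000000 exonic reads of the cell). Gad1, a GABA-synthesising enzyme, had a read in 89 of 89 Sst cells and in 10 IT cells, and Sst itself in 89 Sst cells (median 1913 CPM) and in 21 IT cells. In 2 IT cells the summed CPM of Gad1 and Gad2 exceeded that of Slc17a7. Without these 2 cells the difference between the median cell-wide shares remained 24.1 points. Exonic counts per cell ranged from 258997 to 3463207 in IT and from 235978 to 3217820 in Sst, with medians of 1189390 and 1392346. Because the authors assigned t-types from these same counts, gene levels are not independent of the family labels.

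The IT cells had the higher intronic share. In the 43 IT cells it ran from 3.06% to 65.5% with a median of 46.9%, and in the 89 Sst cells from 1.505% to 61.96% with a median of 22.8%. The 2 families thus overlapped over nearly the whole range and differed in where the cells lay within it. The share reached 40% in 22 IT cells (51.2%, exact binomial interval 35.5 to 66.7%) and in 20 Sst cells (22.5%, 14.3 to 32.6%). These 2 intervals count cells as if independent and cover no difference between animals. In both families the values formed a lower and an upper group: between 30 and 40% lay only 3 IT and 5 Sst cells, whereas 17 IT and 12 Sst cells lay at 50% or above. For its main set of cells the paper describes an apparent bimodality of exonic and intronic counts. It proposes that this could reflect whether the nucleus was extracted, which was not tested here. The size of the difference depended on the summary. The medians differed by 24.1 points, but the means, 37.9% ± 18.2 (SD, n = 43) and 26.4% ± 15.5 (SD, n = 89), differed by 11.5 points. The median intronic count was 883152 in IT and 439221 in Sst.

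Recording day and family were largely confounded, since only 10 and 14 April held at least 3 cells of both. On 10 April the median was 52.1% in 12 IT cells and 18.6% in 6 Sst cells. On 14 April it was 43.2% in 20 IT cells and 27.3% in 5 Sst cells. IT was higher on both days, with overlapping cells on each. The remaining IT cells were 10 cells of 13 April (median 35.6%) and 1 cell of 6 April (21.3%), while the median of the Sst cells on their other 5 days lay between 17.4% on 7 April and 28.2% on 6 April. Without 10 April the medians differed by 14.1 points.

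**Figure D1:**
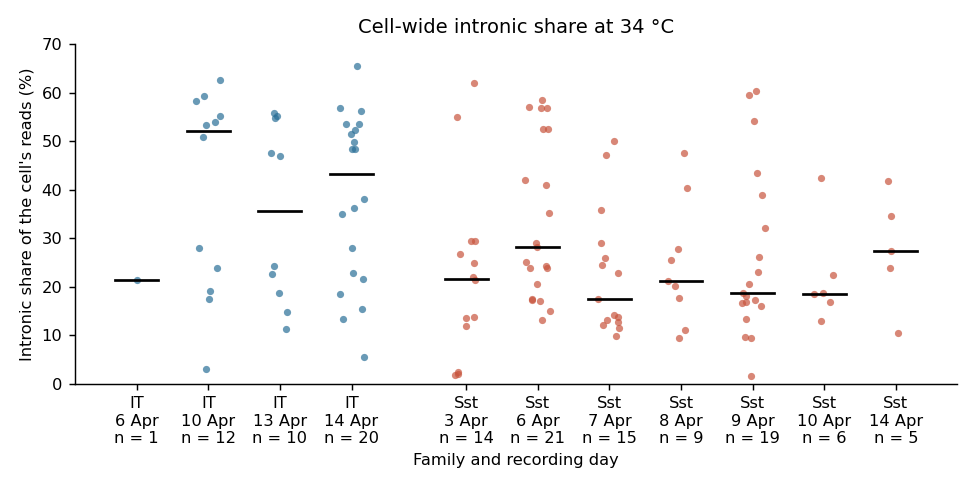
Intronic share of all reads of a cell (y axis, percent) by family and recording day (x axis, with the number of cells), 1 point per cell and a line at the median. The medians of IT cells on 10, 13 and 14 April (35.6 to 52.1%) lie above every Sst median (17.4 to 28.2%), while single cells of both families reach from under 4% to over 60%.

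The t-types with at least 5 cells each spanned a wide range. L5 IT_1, the largest IT type, had a median of 47.6% (3.06 to 65.5%, 29 cells), L4/5 IT_2 33.5% (5.50 to 56.3%, 10 cells), while the 2 L5 IT_2 cells, at 13.4% and 27.97%, lay below the 2 L5 IT_3 cells, at 38.06% and 59.3%. Among the Sst types with at least 5 cells, the medians ran from 17.7% in Sst Calb2 (11 cells) through 20.7% in Sst Hpse (14 cells), 22.8% in Sst Myh8_1 (12 cells) and 24.5% in Sst Pvalb Calb2 (9 cells) to 25.7% in Sst C1ql3_1 (8 cells). All of these were below the medians of L5 IT_1 and L4/5 IT_2, and each of these t-types had cells on both sides of 30%. For orientation, the other excitatory family, ET, had a median of 42.5% (12 cells) and the other interneuron family, Pvalb, 24.6% (8 cells).

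Cells with a higher share had fewer exonic counts. Across the 43 IT cells the share and the log10 exonic count had r = -0.35 (rho = -0.41), and across the 89 Sst cells r = -0.52 (rho = -0.42). These are descriptions over cells, whose share is computed from the same exonic counts. Thinning every cell at random to 200000 reads left the difference between the medians at 24.1 points. Random thinning keeps the expected share of each cell, so this value does not show whether depth matters for the cell-wide share.

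Gene by gene, 11093 genes could be counted, those with at least 10 reads in at least 10 cells of each family. The mean share of a gene in IT and in Sst was closely related (r = 0.94, rho = 0.94 across the genes, which are not independent replicates). The median gene had a share of 18.8% in IT and 12.6% in Sst. Of the 11093 genes, 7412 were higher in IT, 2508 higher in Sst and 1173 equal, and the median difference was 2.89 points. The difference reached 20 points in 723 genes (6.52%) toward IT and in 76 genes (0.685%) toward Sst.

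This imbalance between directions depended on whether the cell-wide share entered the comparison. To compare cells of like overall share, each gene's share was fitted across cells on the family and on the intronic share of all other genes in the same cell, by least squares. The family term is called here the difference at equal cell-wide share. A difference common to most genes also enters the share of the other genes and is taken up by the fit. A median near 0, and with it a loss of imbalance between the directions, thus follows largely from the fit. The median of the family term over the 11093 genes was 0, and 1.68% of the genes were called toward IT and 1.99% toward Sst. Of the 723 genes called toward IT, 24.2% were also called at equal cell-wide share, and of the 76 called toward Sst, 69 (90.8%). When the cell-wide share was instead taken off each gene's share in full, 91 genes were called toward IT and 494 toward Sst. The median gene difference was then -8.80 points. This subtraction treats a gene's share as moving point for point with the cell's, while the median slope in the fit was 0.388. A gene at 0 in both families is thus moved toward Sst by arithmetic. The calls toward Sst and this median were therefore largely set by the subtraction. Below, the plain difference and that at equal cell-wide share are given, since a gene can be called in one and not in the other.

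**Figure D2:**
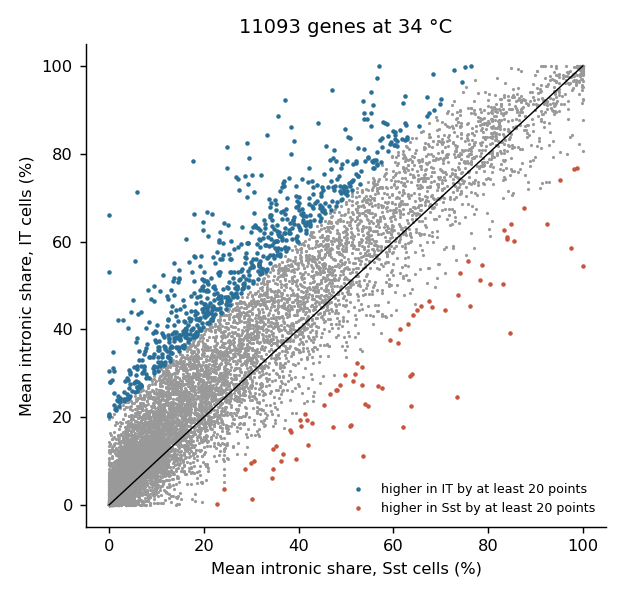
Mean intronic share of each of 11093 genes over the Sst cells (x axis, percent) and over the IT cells (y axis, percent), 1 point per gene, with the line of equality. The 723 blue genes are higher in IT and the 76 red genes higher in Sst by at least 20 points.

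The intronic share of a gene followed the length of its introns. Among the 10124 counted genes with an annotated intron, the share and the log10 summed intron length had rho = 0.77 in IT and 0.75 in Sst. The 402 genes with under 1 kb of intron had a median share of 0.696% in IT and 0.351% in Sst, the 2486 genes with 20 to 50 kb had 24.8% and 16.98%, and the 767 genes with over 200 kb had 75.8% and 67.5%. The difference between the families was larger for longer introns up to 200 kb. Its median was 0.0526 points under 1 kb, 2.65 points at 5 to 20 kb, 7.92 points at 50 to 100 kb, 9.82 points at 100 to 200 kb and 7.44 points above 200 kb. Calls toward IT followed the same order, with 0, 3.15, 13.6, 15.5 and 12.6% of the genes in these 5 classes. At equal cell-wide share the medians of all 8 length classes lay between -1.31 and 0 points. The fit takes up differences common to the genes of a cell, so medians near 0 were largely set by it and do not test the trend.

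**Figure D3:**
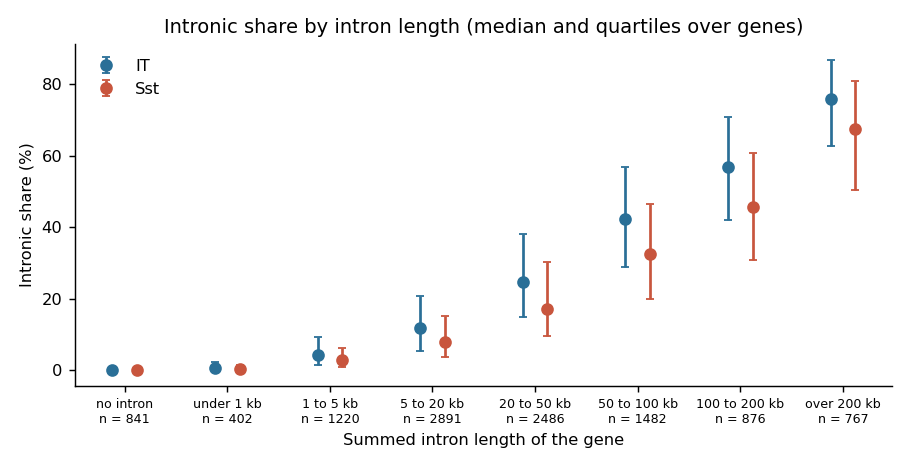
Median intronic share (y axis, percent) of the genes in 8 classes of summed intron length (x axis, with the number of genes), for IT and Sst, with bars from the lower to the upper quartile over genes. IT lies above Sst in each class with at least 1 kb of intron, and the share runs from 4.08% (IT) and 2.76% (Sst) at 1 to 5 kb to 75.8% and 67.5% above 200 kb.

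The intronic reads came from the same class of long genes in both families. Genes with over 200 kb of intron supplied 53.6% ± 6.21 (SD, n = 43) of a cell's intronic reads in IT and 51.5% ± 6.22 (SD, n = 89) in Sst, but 8.55% and 7.71% of its exonic reads. Of the 10 genes holding the most intronic reads in each family 5 were shared, and of the leading 15 genes 10 were. In IT these were led by Ptprd, a receptor tyrosine phosphatase of synapses, at a mean of 13473 intronic CPM (the same scale for intronic reads) and Dpp10, a partner of Kv4 potassium channels, at 13185 intronic CPM. In Sst they were led by the presynaptic neurexin Nrxn3 at 16439 and the adhesion molecule Lsamp at 14592 intronic CPM. Nrxn3 had a mean of 4462 intronic CPM in IT. The order is by means, which single cells can carry. Cmss1 and Gnb1l, next in IT with means of 11673 and 10062, had medians of 2597 and 2947 and highest cells at 179700 and 107361 intronic CPM. The 10 leading genes held 8.68% of the intronic reads in IT and 9.74% in Sst.

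Among the 10 genes with the largest differences toward IT were H6pd, Ccdc191, Thumpd2, Sema3a, Trpc6, Dipk1a, Stum, Ajap1 and Golim4, with 50.97 to 66.02 points, and these 9 were also called at equal cell-wide share (32.8 to 67.4 points). Sema3a encodes a secreted axon guidance cue and lies at chr5:13125414-13602565 on the plus strand (mm10 assembly), with 463284 bases of intron, and overlaps 4 other annotated genes. In 32 IT cells its share had a lowest value of 2.87%, a median of 95.4% and a highest of 100%, and in 47 Sst cells 0, 6.37 and 100%. Most IT cells lay high and most Sst cells low, with overlap: 21 of 32 IT cells were over 80% and 28 of 47 Sst cells under 20%. The mean was 81.6% ± 27.7 (SD, n = 32) in IT and 24.9% ± 32.004 (SD, n = 47) in Sst, 56.7 points apart and 45.9 at equal cell-wide share. On 10 April the means were 82.8% (8 IT cells) and 39.8% (3 Sst cells). The exonic level of Sema3a over the summed cells was 17.7 CPM in IT (exact Poisson interval 16.7 to 18.8) and 66.5 CPM in Sst (65.2 to 67.9). The intervals on read counts cover counting error only, and are too narrow even for that, since a molecule can be read many times and the protocol does not mark molecules.

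Trpc6, a receptor-operated cation channel at chr9:8544142-8680741 that overlaps 1 other annotated gene, was almost intron-only in IT. Its share ran from 80.9 to 100% in 12 IT cells (median 92.7%) and from 0 to 100% in 59 Sst cells (median 28.8%). No IT cell lay under 80%, and 10 of the 59 Sst cells lay over 80%. The means were 92.2% ± 7.80 (SD, n = 12) and 37.2% ± 35.7 (SD, n = 59), 54.96 points apart and 42.6 at equal cell-wide share. Its exonic level was 1.78 CPM in IT and 120.8 CPM in Sst. With so few exonic reads, Trpc6 was counted in IT cells largely through its introns. A similar pattern of few exonic reads in IT was seen for Dipk1a (2.22 against 77.2 exonic CPM, shares of 82.5 and 29.1%) and for the Golgi protein gene Golim4 (1.37 against 35.2 exonic CPM, shares of 84.3 and 33.3%).

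Exonic level and share did not always go together. Thumpd2 had 8.40 exonic CPM in IT and 13.9 in Sst, while its share was 78.3% ± 31.8 (SD, n = 24) in IT and 17.8% ± 34.2 (SD, n = 24) in Sst. In 16 of its 24 IT cells the share was over 80%, and in 19 of its 24 Sst cells under 20%. Stum had more exonic reads in IT (26.7 against 6.40 CPM) as well as the higher share there, 53.02% ± 39.1 (SD, n = 31) against 0 in each of 12 Sst cells. H6pd, an enzyme that supplies reducing power in the endoplasmic reticulum, was at 0 in each of 12 Sst cells and at 0 in 4 of 12 IT cells and over 80% in 8. Values of 0 or 100% in single cells were frequent in all these genes, which had 11 to 67 counted cells per family.

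The 10 largest differences toward Sst lay in Dcdc2a, Arhgap25, Myl4, Chsy1, Furin, Mov10, Gm45193, Pomgnt1, Rsph3a and Luzp2, from -32.96 to -48.76 points, IT minus Sst, and all were called at equal cell-wide share. Arhgap25, a GTPase-activating protein at chr6:87458545-87533259 that overlaps no other annotated gene, had a share of 100% in each of 22 Sst cells. In 35 IT cells its lowest value was 0, its median 46.4% and its highest 100%, with a mean of 54.4% ± 38.5 (SD). Over the summed Sst cells it had 518 intronic and 0 exonic reads, an exonic level of 0 CPM with an exact Poisson upper limit of 0.0277, and in IT 68.8 exonic CPM. Its reads in Sst cells lay in introns alone, so it could be counted there only at 100%. Myl4, a myosin light chain at chr11:104550663-104595753, had 109.3 exonic CPM in IT and 3.28 in Sst. Its share had a median of 26.8% in 38 IT cells and of 96.4% in 55 Sst cells, with 42 of the 55 Sst cells and 7 of the 38 IT cells over 80%. The means were 39.2% ± 33.6 (SD, n = 38) and 84.6% ± 24.7 (SD, n = 55). Myl4 overlaps 4 annotated genes, so part of its reads may belong to another transcript. The same may hold for other genes named here without their overlap. Of the 20 genes with the largest differences, only 6 were counted once overlapping genes were left out.

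Luzp2, a leucine zipper protein gene at chr7:54835498-55268885, differed between days. Its share was 17.9% ± 32.6 (SD, n = 21) in IT and 50.8% ± 33.7 (SD, n = 80) in Sst. In IT it averaged 4.76% on 10 April (6 cells) and 4.17% on 14 April (11 cells) but 75.2% on 13 April (4 cells). In Sst its daily means ran from 38.9 to 63.5%. Rsph3a, a radial spoke protein gene, had 18.2 exonic CPM in IT and 15.8 in Sst with shares of 29.8% and 63.96%, and 12.7 intronic CPM in IT against 199.3 in Sst. Furin, a protease that cleaves precursor proteins, had a share of 11.2% ± 17.9 (SD, n = 10) in IT and 53.6% ± 41.5 (SD, n = 22) in Sst. The IT value rests on 10 cells, the smallest number allowed.

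**Figure D4:**
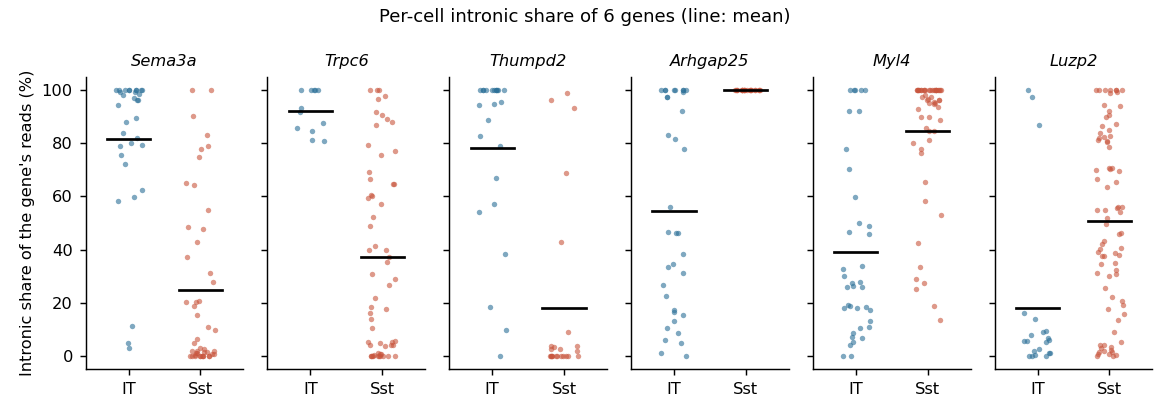
Intronic share of the reads of 6 genes (y axis, percent) in single IT and Sst cells with at least 10 reads of the gene, 1 point per cell and a line at the mean. Sema3a, Trpc6 and Thumpd2 have higher means in IT (81.6, 92.2 and 78.3%), and Arhgap25, Myl4 and Luzp2 in Sst (100, 84.6 and 50.8%).

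Some genes were almost intron-only in one family. A mean share of at least 95% in IT with at most 75% in Sst was found in 5 genes, which were chosen here after their values were seen: Kcnip1, Nrg1, Rbms3, Cntnap5c and Gm26781. Kcnip1, a calcium-binding partner of Kv4 potassium channels at chr11:33629339-33993152, had a share of 95.5 to 100% in all 43 IT cells (mean 99.9% ± 0.690, SD). In the 89 Sst cells it ran from 16.7 to 100% with a mean of 56.9% ± 24.95 (SD). Its exonic level was 0.175 CPM in IT and 342 CPM in Sst, while its intronic level was 643 CPM in IT and 1146 in Sst. The exonic level was higher in Sst for 4 of the 5 genes, the exception being Nrg1, a ligand of ErbB receptors, with 59.3 exonic CPM in IT, 36.4 in Sst and shares of 97.3 and 56.6%. The reverse pattern held for 3 genes, Arhgap25, Zmiz1os1 and Gm45193. All 5 genes near 100% in IT and 2 of the 3 in Sst overlap another annotated gene, the exception being Arhgap25.

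Genes were then grouped by function in 29 lists. Medians of lists depend on the scale. With the cell-wide share taken off, the medians of 19 of the 24 lists with at least 3 counted genes changed sign. Among them were potassium channels (-4.35 points), glutamate receptors (-4.29) and GABA receptors (-0.518). At equal cell-wide share 8 of the 24 changed sign. The subtraction lowers the difference of most genes and the fit takes up common differences, so these changes were largely set by the scale. The counts of called genes below stand against 6.52% called toward IT over all genes, and against 15.5% and 12.6% for genes with 100 to 200 kb and over 200 kb of intron. The median differences of lists below stand against 2.89 points over all genes and 8.57 points over genes with over 100 kb of intron. Of 31 counted potassium channel genes, including auxiliary subunits, 5 (16.1%) were called toward IT and 0 toward Sst. The median difference of the list was 8.58 points, near the 8.57 of genes with over 100 kb of intron. The 5 called genes were Kcnip1 (42.97 points), Kcnq5 (34.1), Kcnab1 (24.5), Kcnc1 (23.1) and Dpp10 (21.5). Of these, Kcnip1 and Kcnq5 were called at equal cell-wide share (36.7 and 21.7 points). Kcnq5 carries a slow, non-inactivating potassium current. Its share was 87.9% ± 21.9 (SD, n = 42) in IT and 53.8% ± 41.5 (SD, n = 70) in Sst, and its exonic level was 108.2 and 16.2 CPM. Kcnc1, a fast delayed-rectifier channel of the Kv3 family, had shares of 36.2% ± 35.03 (SD, n = 39) and 13.1% ± 23.5 (SD, n = 85), with 51.1 and 190.8 exonic CPM. Dpp10 was higher in IT in share, exonic level (458 against 138.8 CPM) and intronic level, whereas Kcnip1 and Kcnc1 had the lower exonic level in IT.

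Of 19 glutamate receptor genes 5 (26.3%, against 6.52% over all genes) were called toward IT and 0 toward Sst (median difference 9.77 points). Gria1, an AMPA receptor subunit, had a share of 65.9% ± 28.8 (SD, n = 39) in IT and 41.6% ± 24.3 (SD, n = 89) in Sst. Its exonic level was 150.8 CPM in IT and 709 CPM in Sst. Grin3a, an NMDA receptor subunit enriched in Sst cells, had 5.35 and 383 exonic CPM and was also called at equal cell-wide share (23.3 points). The obligatory NMDA receptor subunit gene Grin1 had 27.3% ± 17.5 (SD, n = 39) and 17.5% ± 18.1 (SD, n = 89), a difference of 9.77 points and of 1.74 at equal cell-wide share. Of 14 GABA receptor genes 13 lay higher in IT, against 66.8% of all counted genes (median difference 12.9 points). Of the 14, 2 (14.3%) were called toward IT, Gabrb1 (27.9 points) and Gabrb2 (22.9), and 0 at equal cell-wide share. Gabrb1 had a share of 76.8% ± 20.7 (SD, n = 42) in IT and 48.9% ± 29.6 (SD, n = 83) in Sst.

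The calcium channel list holds genes named as pore or auxiliary subunits, not all of which form a channel. Among its 15 counted genes 3 (1 in 5, against 6.52% over all genes) were called toward IT. These were Cacnb4 (31.6 points), Cacna1i (30.2) and Cacng2 (22.6), of which only Cacna1i encodes a pore, that of a low-threshold T-type channel. Of the 3 genes, Cacna1i was called at equal cell-wide share. None of the 8 sodium channel genes was called, at median shares of 32.9% in IT and 21.6% in Sst. All 3 counted members of the list of HCN channels and Pex5l lay higher in IT, by 5.33 to 14.7 points, and none was called. Of all counted genes, 66.8% lay higher in IT.

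Synaptic adhesion molecules had the highest shares of the lists with more than 5 counted genes, with medians of 85.8% in IT and 78.8% in Sst over 39 genes, and 1 call (2.56%). This was Cdh13, a cadherin at chr8:118283733-119324921 with 1029956 bases of intron, at 94.5% ± 17.2 (SD, n = 17) in IT and 46.95% ± 26.3 (SD, n = 82) in Sst. Synaptic scaffold genes moved in both directions. Of 19 genes, Magi1 was called toward IT (86.98 against 62.5%) and Arhgap32 toward Sst (36.96% ± 23.3, SD, n = 41, against 60.9% ± 34.3, SD, n = 81). At equal cell-wide share 2 scaffold genes were called, both toward Sst, Arhgap32 (-34.7 points) and Dlgap1 (-23.8 points). Of 28 genes of synaptic vesicles and release 2 (7.14%) were called toward IT, Sv2c and Syn3, a share near the 6.52% over all genes, and 0 at equal cell-wide share.

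Genes of cellular maintenance had low shares in both families. The 39 cytosolic ribosomal protein genes had median shares of 1.58% in IT and 0.655% in Sst, the 39 nuclear-encoded oxidative phosphorylation genes 4.08% and 2.93%, and 36 splicing factor and kinase genes 8.71% and 7.96%, and none of these was called. The 10 counted mitochondrial genes, which have no introns, were at 0 in every cell, as was the nuclear noncoding RNA Malat1, which has no intron in the annotation.

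Immediate early genes, which neuronal activity induces, had median shares of 2.43% in IT and 0.532% in Sst over 24 genes, and 2 calls toward IT (8.33%), a share near the 6.52% over all genes. Nr4a3, a nuclear receptor, had 46.7% ± 33.2 (SD, n = 33) and 15.6% ± 30.2 (SD, n = 44), and Nptx2, a secreted pentraxin of excitatory synapses, had 35.9% ± 26.6 (SD, n = 37) and 13.2% ± 25.6 (SD, n = 31). Both also had more exonic reads in IT (59.8 against 27.2 and 153.2 against 23.4 CPM), and neither was called at equal cell-wide share. Of 21 neuronal transcription factor genes, 18 lay higher in IT, against 66.8% of all counted genes. Of the 21, 1 (4.76%) was called toward IT (Bcl11a, 20.8 points), and at equal cell-wide share 1 was called toward Sst.

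**Figure D5:**
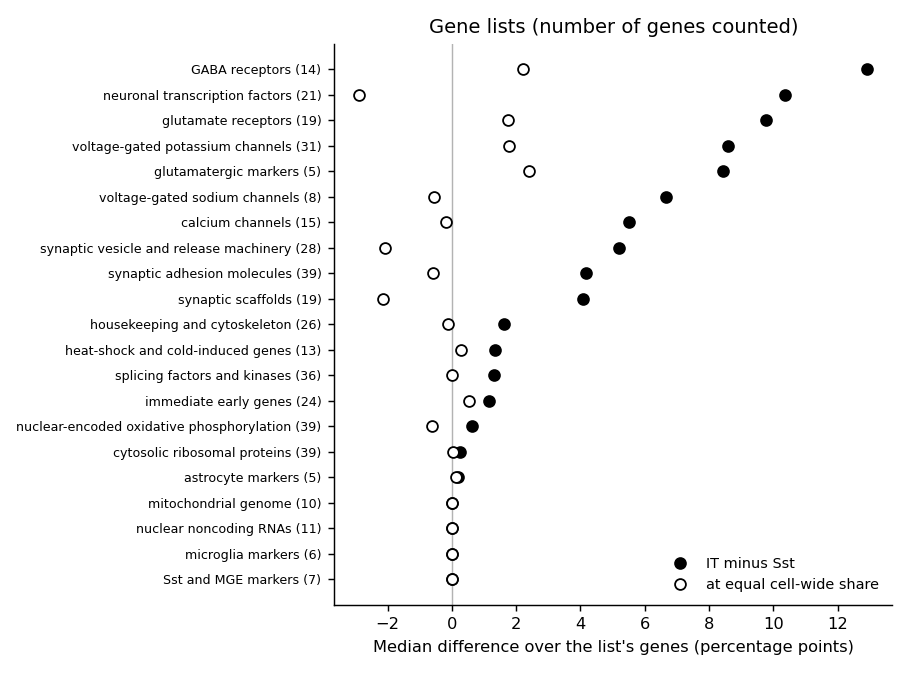
Median difference in intronic share, IT minus Sst, over the counted genes of each list with at least 5 counted genes (x axis, percentage points; the number of genes is beside the name). Filled points are the plain difference, from 0 to 12.9 points, and open points the difference at equal cell-wide share, from -2.88 to 2.40 points.

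In the 89 Sst cells the mean share was 2.59% ± 5.57 (SD) for Sst, 15.1% ± 17.7 (SD) for Gad1 and 17.5% ± 20.1 (SD) for Gad2. In the 43 IT cells the mean was 1.54% ± 4.93 (SD) for Slc17a7. Of the 14 glutamatergic markers 5 were counted in both families, and Etv1 was called toward IT (37.9% ± 31.4, SD, n = 33, against 5.86% ± 16.1, SD, n = 12) and Camk2a toward Sst (26.2% ± 22.5, SD, n = 43, against 48.1% ± 28.2, SD, n = 85). Of 7 counted Sst and MGE markers 1 was called, Grin3a. Of 2 counted GABAergic markers none was called, and of 2 counted Pvalb markers Kcnc1 was.

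Reads of glial marker genes were present in both families and more abundant in IT. The summed microglial markers ranged from 0 to 6636 exonic CPM in IT (median 267.6) and from 0 to 1679 in Sst (median 101.1), and astrocyte markers from 413 to 12552 (median 1018) and from 0 to 2521 (median 132.2). Oligodendrocyte markers had medians of 423 and 168.4 exonic CPM, and those of oligodendrocyte precursors 0 in both. Microglial reads were nearly all exonic, with 1.73% of the summed reads intronic in IT (exact binomial interval 1.62 to 1.85%) and 2.27% in Sst (2.09 to 2.47%). C1qa, C1qc and P2ry12 were at 0 intronic share in every counted cell of both families. Of 5 counted astrocyte markers 1 was called toward IT, Slc1a2, with 39.3% ± 23.7 (SD, n = 43) against 13.7% ± 29.7 (SD, n = 50), which was also called at equal cell-wide share (21.6 points), and 0 of 4 oligodendrocyte markers and 0 of 6 microglial markers were. Across cells, the cell-wide share and the log10 microglial CPM had r = 0.37 (rho = 0.33) over the 43 IT cells and r = 0.15 (rho = 0.29) over the 89 Sst cells. Of the summed astrocyte marker reads 22.2% were intronic in IT and 5.08% in Sst. Whether reads of these marker genes came from glia or from the recorded neurons was not tested. The part of glial RNA in the differences between the families was not tested either.

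The comparison was repeated in cells recorded at 25 °C, which shared no cell with the set above, for L5 IT_1 and Sst Myh8_1, the t-types with the most cells of their family at 34 °C before the minimum of counts. L5 IT_1 had a median cell-wide share of 51.9% (2.497 to 73.7%, 59 cells) and Sst Myh8_1 of 34.95% (6.86 to 53.2%, 11 cells). At 34 °C the same t-types had 47.6% (29 cells) and 22.8% (12 cells). L5 IT_1 was higher at both temperatures, with overlapping cells. Slices at 25 °C were recorded on other days and, unlike those at 34 °C, were not described as held in the synaptic blockers. The paper's 25 °C set also came from wild-type mice and further Cre lines. Temperature, day, mouse line and blockers therefore cannot be told apart. According to the general protocol, excitatory neurons were typically recorded for a shorter time than interneurons, and the part of this in the shares was not tested.

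At 25 °C 3010 genes were counted in at least 8 cells of each t-type, of which 2077 were higher in L5 IT_1, 11.6% by at least 20 points, and 0.565% lower by at least 20 points. Of the 723 genes called toward IT at 34 °C, the 21.9% that could be counted there were higher in L5 IT_1 in 92.4% of cases, and 69 of them (43.7%) by at least 20 points. Of the 76 genes called toward Sst only 5 could be counted, of which 2 were lower in L5 IT_1. At equal cell-wide share 23 genes called toward IT and 20 called toward Sst could be counted, and 18 and 15 of them kept their direction, against 48.1% and 43.6% of all 3010 genes in those directions. Across the 3010 genes the differences at the 2 temperatures had r = 0.40 (rho = 0.38), and at equal cell-wide share r = 0.25 (rho = 0.21).

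Several of the genes described above had like values in the 25 °C cells. Trpc6 had 90.3% in L5 IT_1 (24 cells) and 29.6% in Sst Myh8_1 (9 cells), Grin3a 84.2% and 43.5%, Cdh13 96.4% and 59.2%, Gabrb1 77.3% and 49.5%, Cacnb4 85.1% and 59.3%, and Kcnc1 35.9% and 7.53%. Kcnip1 was again almost intron-only in IT at 99.7% (58 cells), but Sst Myh8_1 also had 86.9% (11 cells). Luzp2 and Kcnab1 went the other way than at 34 °C, Luzp2 with 60.5% in L5 IT_1 (26 cells) and 46.2% in Sst Myh8_1 (10 cells), and Kcnab1 with 71.2% and 88.5%.

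Because the share of a gene is computed from its exonic reads, its relation to the exonic level was examined with exonic levels from the 25 °C cells only. A gene with few exonic reads in a family can still be counted there through its intronic reads, at a high share. The part of this in the differences between the families was not tested. Genes at least 4-fold higher in Sst Myh8_1 than in L5 IT_1 at 25 °C had a median difference of 8.39 points at 34 °C (quartiles 0.159 to 21.5), and 35 of them (25.7%) were called toward IT. Genes 2- to 4-fold higher in Sst Myh8_1 had 4.52 points and 29 calls toward IT (6.07%). The 2075 genes within 2-fold had 3.18 points and 74 calls toward IT (3.57%), genes 2- to 4-fold higher in L5 IT_1 had 4.84 points and 17 calls (7.14%), and the 83 genes at least 4-fold higher in L5 IT_1 had 2.14 points and 3 calls (3.61%). In the same sequence 2, 1, 1, 0 and 1 genes were called toward Sst (1.47, 0.209, 0.0482, 0 and 1.20%). The 5 classes thus did not follow one order. At equal cell-wide share their medians were, in the same sequence, 0.835, 0, -0.0516, -0.141 and -1.02 points. Over all 3010 genes the log2 exonic fold at 25 °C and the difference in share at 34 °C had r = -0.13 (rho = -0.06).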

How the data were processed

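The authors deposited whole-number counts of exonic and intronic reads per gene and cell, without normalization. Reads were made by Smart-seq2 without molecular identifiers, aligned to mm10 with STAR (version 2.5.4b, after bcl2fastq 2.20, per the submitters' processing notes) and counted with zUMIs and Gencode. Spike-in rows were left out. In the tables of the 25 °C cells 9 columns match no sample and were not used.

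Cells were grouped by the labelled t-type. No 2 cells had identical counts. For each gene and cell with at least 10 reads, the share was 100 × intronic / (intronic + exonic), and it was averaged over cells of a family where at least 10 cells of each were counted. CPM are read counts scaled to 1000000 exonic, or intronic, reads of the cells. Depth limits genes to those with 10 reads, and a share from 10 reads is coarse. Intron lengths, positions and overlaps are from a GENCODE release of the same assembly, older than the authors', in which 10965 of the 11093 genes had a unique symbol. Of these, 6262 overlap another annotated gene, and whether counting used strand is not given in the sources used here, so reads of such genes may be shared.

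Named genes are the 10 largest differences in each direction, the 5 highest and 5 lowest shares per family among genes counted in at least 0.5 of the cells of both, the 3 members of each list with the most cells, and counted markers. The text gives a selection of them, some are not reported here, and called members of lists outside this rule were named after their values were seen. Members and lists were chosen with earlier results of these data known. No test across samples was made. The script was tested on simulated data. Python (version 3.11.15), numpy (version 2.4.6), pandas (version 2.3.3) and scipy (version 1.17.1) were used.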

Additional observations from a re-analysis of the deposited data

Results flagged for a closer look

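Among the 6 Sst cells of 10 April, 1 cell had a cell-wide intronic share of 42.4%, while the next highest had 22.4% and the lowest 13.02%. The gap to the nearest cell was 0.681 of the range of the group. Of 11 t-types and recording days with 4 to 10 cells, this was the 1 group with such a cell. The limit used flags about 1 in 20 groups of normally distributed values. The shares formed a lower and an upper group, and t-types and days draw on the same cells, so this rate need not hold here.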

How the results depend on the processing

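The difference of 24.1 points between the median cell-wide shares became 11.5 with means, 11.8 with summed counts, 8.27 with the mean of recording-day means, 14.5 without genes that overlap another gene and 16.96 in the 25 °C cells, and leaving out each recording day gave 14.1 (without 10 April) to 26.4 points. The share of counted genes called toward IT, 6.52%, became 12.7% with medians over cells, 5.63% without overlapping genes (fewer genes tested, 4703), 1.496% at 30 points, 1.68% at equal cell-wide share and 0.820% with the cell's overall share taken off, 12.1% on the days with at least 3 cells of both families (fewer genes tested, 8948), and 6.06 to 9.29% without single days. The 0.685% toward Sst became 1.58, 0.404, 0.153, 1.99 and 4.45% with medians, without overlapping genes, at 30 points, at equal share and with the overall share taken off, 1.14% with recording-day means, 1.32% on those days, 0.245% after thinning to 200000 reads (fewer genes tested, 6124), and 0.523 to 0.694% without single days, where 50 genes in place of 76 were called without 14 April. The median gene difference of 2.89 points became 0 with medians over cells, 1.38 with recording-day means, -8.80 with the cell's overall share taken off and 0 at equal cell-wide share, and 2.54 to 3.95 without single days. For the 1643 genes with over 100 kb of intron the difference of 8.57 points became -4.19 with the cell's overall share taken off and 0 at equal cell-wide share, and 7.66 to 10.8 without single days. Values with the cell-wide share taken off were largely set by that subtraction, as described above. Elsewhere, where no number of genes is named, the cause was not tested. None of the 20 genes with the largest differences changed sign under any setting at 34 °C in which it was counted. As these genes were chosen for their differences in the same cells, this is no independent support. Only 3 of the 20 genes were counted after thinning and 4 with 1 t-type of each family. On the days with at least 3 cells of both families 6 were counted, and without overlapping genes also 6 of them. At 25 °C, where 2 of them could be counted, Trpc6 kept its sign and Luzp2 did not (14.3 points). The fit at equal cell-wide share, the restriction to protein-coding genes or to 1 t-type of each family, the 2 t-types at 25 °C and the removal of 2 IT cells were chosen after seeing the data. The comparison of all t-types at 25 °C had been planned and was not run. No paired analysis was possible because replicate numbers only count cells in accession order and match no cell of one family to a cell of the other. Within-day values for 10 and 14 April are given above instead.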
